A study of Mus musculus with 55 samples.

Results

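The 9 genes described here are the GATA factors Gata1, Gata2 and Gata3 and 6 transcription factors that work with them in erythroid and megakaryocytic cells, namely Zfpm1, Tal1, Lmo2, Klf1, Gfi1b and Nfe2. They were chosen as a gene family by symbol, and each matched exactly 1 of the 55421 genes in the first of 2 count tables. The study asked how loss of Tet2, whose product oxidises methylated cytosine in DNA, alters gene activity in mouse blood stem and progenitor cells, and whether additional loss of Sting, an adaptor of the innate response to cytosolic DNA, modifies it. Bulk RNA-seq was made from sorted bone marrow cells, with 200 cells per sample according to the labels, while the study's methods give a larger number.

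The first table held 46 libraries of 6 populations from mice labelled WT or Tet2-/-. The populations were long-term and short-term hematopoietic stem cells (LT-HSC and ST-HSC), common myeloid progenitors (CMP), granulocyte-monocyte progenitors (GMP), megakaryocyte-erythroid progenitors (MEP) and common lymphoid progenitors (CLP). There were 4 libraries per genotype and population, except 3 of WT LT-HSC and 3 of WT ST-HSC. The second table held 9 LT-HSC libraries, 3 each labelled WT, Sting-/- and Tet2;Sting DKO, the last lacking both genes. All mice were on a C57BL/6 background. The Tet2-/- mice carried floxed Tet2 and Mx1-Cre, a recombinase driven by an interferon-inducible promoter that is not limited to blood cells; it was induced with poly(I:C) at 4 weeks of age, and the first set was taken 16 weeks after induction. The Tet2;Sting DKO mice carried floxed Tet2, Mx1-Cre and Sting-/- and were induced at the same age, whereas for the Sting-/- mice no induction is stated. The time between induction and collection of the second set, and whether the WT mice received poly(I:C), is not stated for the RNA-seq libraries in the sources used here. For flow cytometry that included Tet2wt/wt and Tet2;Sting DKO mice, the study's legend gives a time after poly(I:C) for all mice. It does not say whether this holds for the RNA-seq. The study writes the WT genotype of the second set as Tet2wt/wt and does not state the alleles of the first. Neither do the labels say whether libraries with the same replicate number came from 1 mouse, so p-values below measure the spread between these libraries, which may be technical.

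GATA factors are zinc-finger proteins that bind the sequence GATA in the promoters and enhancers of blood genes. Gata2 acts in stem and early progenitor cells, Gata1 replaces it at many shared sites as red cell and platelet precursors mature, and Gata3 serves T cells and other lymphoid cells. In erythroid cells Gata1 works in a complex with Tal1, Lmo2 and Ldb1, is assisted by its cofactor Zfpm1 (FOG1), and acts beside Klf1, Gfi1b and Nfe2 on globin, heme and membrane genes.

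Total counts were high in both tables, but fewer genes were detected in the second. Libraries of the first set held 50458473 to 102148079 counts, with 13754 to 20964 genes detected. The second held 26776103 to 78681188 counts, with 9381 to 11527 genes detected. Levels below are CPM, the counts relative to a library size scaled by the trimmed mean of M-values, and a level per kilobase of annotated exon is given only where genes are compared with each other. A count of 0 allowed a level of up to 0.0273 to 0.0889 CPM per library of the first table and 0.0410 to 0.105 CPM per library of the second, taking 3 counts as the floor and counting error only. No 2 libraries were identical, and the most alike pair of a table correlated across genes at 0.976 (first table) or 0.857 (second table). Defining genes were read for some of the populations. Slamf1, a surface protein of LT-HSCs, averaged 50.7 ± 9.71 CPM (SD, n = 3) in WT LT-HSCs and 61.9 ± 29.4 CPM (SD, n = 4) in those labelled Tet2-/-. It averaged 0.537 ± 0.930 CPM (SD, n = 3) in WT ST-HSCs. Cd34, a surface protein present on CMPs and lacking from MEPs, averaged 524 ± 48.1 CPM (SD, n = 4) in WT CMPs and 12.2 ± 8.58 CPM (SD, n = 4) in WT MEPs. Mpo, a granule enzyme, averaged 20973 ± 3195 CPM (SD, n = 4) in WT GMPs and 23435 ± 2265 (SD, n = 4) in GMPs labelled Tet2-/-. Il7r, the receptor that defines CLPs, averaged 513 ± 102 CPM (SD, n = 4) in WT CLPs and 484 ± 417 CPM (SD, n = 4) in those labelled Tet2-/-.

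Tet2 itself did not separate the genotype labels. In MEPs it measured 13.7, 10.8, 14.0 and 10.8 CPM in the WT libraries and 12.3, 13.0, 7.02 and 11.7 CPM in those labelled Tet2-/-. In GMPs it measured 38.8, 33.2, 37.0 and 41.7 CPM in WT and 60.5, 49.4, 39.7 and 42.5 CPM in the labelled libraries. In LT-HSCs the WT libraries held 14.0, 14.3 and 11.3 CPM and the others 27.2, 12.1, 16.1 and 40.4 CPM. The groups overlapped in each of these populations. The counts cover the whole gene, so they cannot show the loss of a floxed part, and the genotypes below are those of the labels.

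Promoter windows were taken from the RefSeq table for GRCm38.p6, 300 bases from 250 before to 50 after each start site. They were found for 7 of the 9 genes, with 2 windows each for Gata2 and Tal1; Lmo2 and Nfe2 had none in that table. Searched on both strands were GATA words (AGATAA or else AGATAG, likewise TGATAA or else TGATAG), then the CACCC words that Klf1 binds (CCACACCC or else CCGCACCC, likewise CCCCACCC) and E-boxes of the kind Tal1 binds (CAGATG or else CAGCTG). Of all 32851 windows in the table, 29.8% held a GATA word, 14.5% a CACCC word and 30.6% an E-box. The 250 bases before the start site of 3 members are shown because these had the highest levels per kilobase in WT MEPs and were called higher in MEPs than in GMPs in both genotypes. Capitals mark every one of the searched words in the 250 bases. Gata1 lies at chrX:7959260-7978071, its shown bases at chrX:7967911-7968160 on the minus strand within the annotated gene; Klf1 lies at chr8:84901928-84905291, its shown bases at chr8:84901732-84901981 on the plus strand; Gfi1b lies at chr2:28609450-28621982, its shown bases at chr2:28621983-28622232 on the minus strand.
Gata1: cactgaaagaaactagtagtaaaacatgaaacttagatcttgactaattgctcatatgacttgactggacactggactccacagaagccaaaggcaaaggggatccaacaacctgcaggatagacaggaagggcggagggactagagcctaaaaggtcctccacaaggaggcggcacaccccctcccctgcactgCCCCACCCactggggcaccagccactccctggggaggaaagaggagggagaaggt
Klf1: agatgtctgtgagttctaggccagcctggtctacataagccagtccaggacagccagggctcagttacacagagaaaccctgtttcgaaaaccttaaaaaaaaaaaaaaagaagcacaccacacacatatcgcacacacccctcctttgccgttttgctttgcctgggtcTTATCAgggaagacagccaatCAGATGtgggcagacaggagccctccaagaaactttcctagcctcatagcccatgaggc
Gfi1b: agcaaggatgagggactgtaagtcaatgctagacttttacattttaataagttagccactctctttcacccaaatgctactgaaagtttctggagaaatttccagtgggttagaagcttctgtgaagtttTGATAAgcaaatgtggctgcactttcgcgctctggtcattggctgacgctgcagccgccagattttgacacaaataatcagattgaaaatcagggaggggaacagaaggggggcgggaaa

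The Gata1 window held the CACCC word CCCCACCC, 55 bases before the start site, and no searched GATA word or E-box. The Klf1 window held TTATCA, the reverse complement of the GATA word TGATAA, 80 bases before its start and the E-box CAGATG 59 bases before it. The Gfi1b window held TGATAA 120 bases before its start. Of the other members, Gata3 (chr2:9857078-9890034) held a word of every kind, Tal1 (chr4:115056426-115071755) a GATA word and an E-box in 1 of its 2 windows, Gata2 (chr6:88193891-88207032) an E-box in 1 of its 2 windows, and Zfpm1 (chr8:122282141-122337251) none of the searched words. Such matches describe the letters of a window and do not identify a bound site. Lmo2 lies at chr2:103957986-103981878 and Nfe2 at chr15:103248212-103258403.

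**Figure D1:**
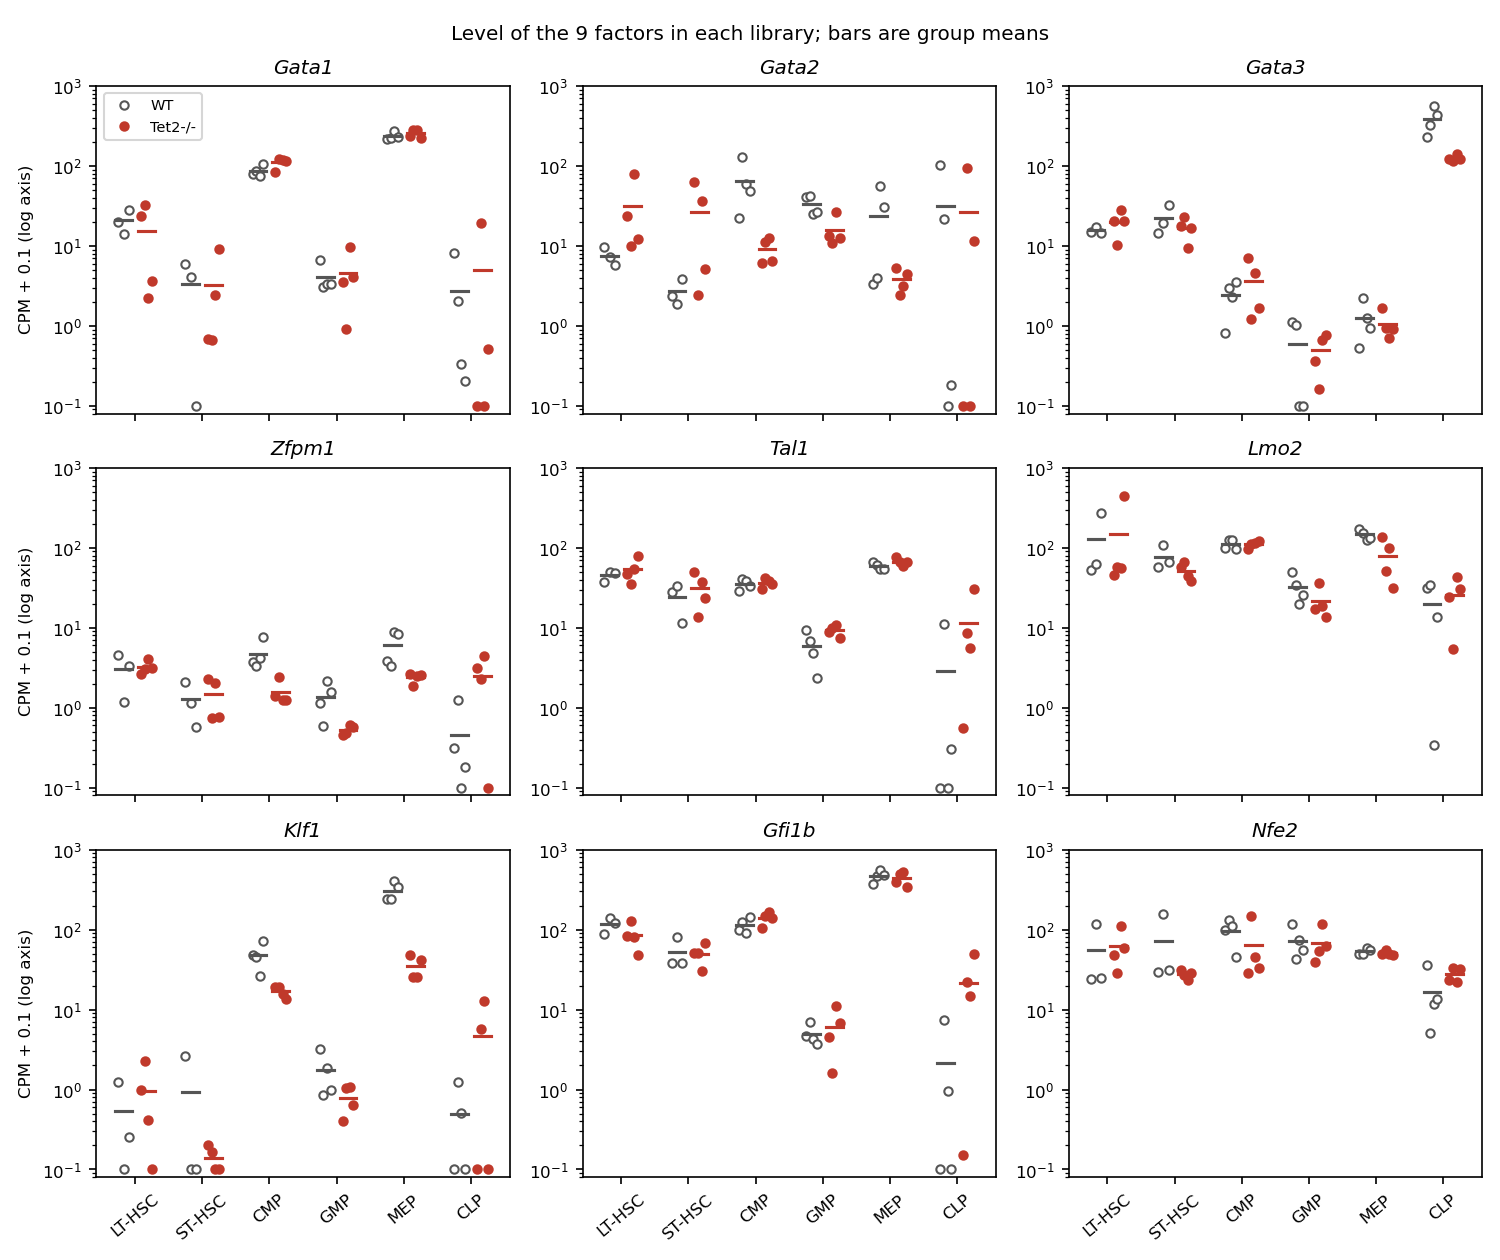
Level of each of the 9 genes in the 46 libraries of the first set, in CPM plus 0.1 on a log axis, by population. Each point is a library, open grey for WT and red for the label Tet2-/-, and bars are group means; Gata1, Klf1 and Gfi1b are highest in MEP, Gata3 in CLP, and the red Klf1 points in MEP (25.2 to 48.6 CPM) lie below all grey ones (239 to 402 CPM).

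Of the GATA factors, Gata1, the factor that drives erythroid and megakaryocytic maturation, was highest in MEPs. The WT MEP libraries held 217, 222, 271 and 230.1 CPM, with a mean of 235 ± 24.4 (SD, n = 4). The MEP libraries labelled Tet2-/- held 235, 285, 279 and 227 CPM, with a mean of 256 ± 29.8 (SD, n = 4). The 2 groups overlapped, and the log2 difference between genotypes was 0.12 (SE 0.11, adjusted p = 0.705 by edgeR's quasi-likelihood test). CMPs came next, at 79.7, 87.0, 74.0 and 104 CPM in WT and 83.3, 122, 120.2 and 115 CPM in the labelled libraries, a log2 difference of 0.35 (SE 0.16, adjusted p = 0.284) between overlapping groups. WT LT-HSCs held 19.7, 14.1 and 28.3 CPM, and LT-HSCs labelled Tet2-/- held 23.6, 32.6, 2.15 and 3.53 CPM. In WT the libraries of MEPs, CMPs and LT-HSCs did not overlap with those of the next population in this order, whereas GMPs (2.92 to 6.59 CPM), ST-HSCs (0 to 5.77 CPM) and CLPs (0.104 to 8.16 CPM) overlapped with each other. In bulk samples such as these, fewer cells that use a gene and less RNA of it per cell cannot be told apart.

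Gata2, the factor of stem and early progenitor cells, fell in CMPs and GMPs labelled Tet2-/-. In CMPs the WT libraries held 22.0, 128, 60.1 and 49.0 CPM and those labelled Tet2-/- held 6.09, 11.2, 12.5 and 6.32 CPM. All 4 labelled libraries lay below all WT libraries. The mean was 64.8 ± 45.1 CPM (SD, n = 4) in WT and 9.02 ± 3.29 (SD, n = 4) in the labelled group, and Gata2 fell by 2.86 on the log2 scale (SE 0.51, adjusted p = 0.00944). In GMPs it also fell, by 1.13 (SE 0.30, adjusted p = 0.0479), from 40.4, 42.0, 25.3 and 26.2 CPM in WT to 13.3, 10.7, 26.3 and 12.3 CPM, and the groups overlapped through 1 labelled library at 26.3 CPM. The GMP call was at the edge of the threshold: leaving out any 1 of the 8 GMP libraries except replicate 4 of the labelled group raised the adjusted p to between 0.0511 and 0.143.

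In MEPs Gata2 varied widely among WT libraries, at 3.28, 3.90, 55.7 and 30.6 CPM, while the labelled libraries held 5.21, 2.37, 3.03 and 4.33 CPM. The log2 difference of -2.62 (SE 0.85, adjusted p = 0.138) was not called by edgeR, though DESeq2 called it (-2.65, adjusted p = 0.00968), and the groups overlapped. In LT-HSCs the WT libraries held 9.59, 7.06 and 5.67 CPM and the labelled ones 23.5, 9.92, 79.4 and 12.2 CPM. All labelled LT-HSC libraries were above all WT ones, but the log2 difference of 2.06 (SE 0.75) had an unadjusted p of 0.0234 and an adjusted p of 0.780. In LT-HSCs the 12 granulocyte-monocyte genes listed summed to 36.3 to 45.8 CPM in WT and 47.6 to 164 CPM in the labelled group. These sums did not overlap either, and their part in the Gata2 difference was not tested. In ST-HSCs Gata2 measured 2.27, 1.80 and 3.71 CPM in WT and 62.1, 2.36, 36.3 and 5.10 CPM in the labelled libraries, a log2 difference of 3.37 (SE 1.12, adjusted p = 0.560) between groups that overlapped. CLPs were scattered in both genotypes, with 0 to 104 CPM in WT libraries and 0 to 93.1 CPM in labelled ones. In WT the libraries of CMPs, GMPs, CLPs, MEPs and LT-HSCs formed a chain of overlapping neighbours, and LT-HSCs lay above ST-HSCs without overlap.

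Gata3, the GATA factor of T and other lymphoid cells, was highest in CLPs. WT CLP libraries held 229, 327, 563 and 438 CPM, with a mean of 389 ± 144 (SD, n = 4). Those labelled Tet2-/- held 123, 115, 139.5 and 121 CPM, with a mean of 125 ± 10.6 (SD, n = 4). The groups did not overlap, and the log2 difference of -1.70 (SE 0.33) had an unadjusted p of 0.000662 but an adjusted p of 0.376, so edgeR made no call. DESeq2 called it, with an adjusted p of 6.1e-05. The CLP libraries also differed in Ighm, the immunoglobulin heavy chain mu gene, named here after its values were seen, which averaged 207934 ± 55292 CPM (SD, n = 4) in WT and 74982 ± 66060 CPM (SD, n = 4) in the labelled group. The 13 lymphoid genes listed summed to 147172, 270080, 240298 and 182160 CPM in WT and to 2663, 38924.5, 133426 and 132952 CPM in the labelled libraries. Ighm made up nearly all of the mean of this sum in both genotypes, and Il7r of the same list, given above, varied more in the labelled libraries. Granulocyte-monocyte genes summed in CLPs to 748 to 4401 CPM in WT and 211 to 14280 CPM in the labelled group, and mast cell, basophil and eosinophil genes to 255 to 3665 and 130.2 to 790 CPM. The part of these genes in the Gata3 difference was not tested. Without the labelled library at 2663 CPM, replicate 2, the Gata3 difference was -1.70 with an adjusted p of 0.417. The 16 genes of T, NK and innate lymphoid cells summed to 1832 to 2881 CPM in WT and 1465 to 6189 CPM in the labelled group, and 0 of 13 tested were called by edgeR, with 0 at an unadjusted p under 0.05.

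Gata3 was also present in stem cells, at 14.6 to 17.1 CPM in WT LT-HSCs and 14.5 to 32.7 CPM in WT ST-HSCs. CMPs, GMPs and MEPs held at most 7.06 CPM in either genotype. In both genotypes the CLP libraries lay above all other populations and the stem cell libraries above the myeloid progenitors, while LT-HSCs and ST-HSCs overlapped.

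Zfpm1 encodes FOG1, the cofactor that Gata1 needs in red cell and platelet precursors. Its levels were low, never above 8.73 CPM. CMPs held 3.64, 3.20, 4.06 and 7.61 CPM in WT and 1.31, 2.35, 1.16 and 1.14 CPM in the labelled libraries. MEPs held 3.76, 3.25, 8.73 and 8.18 CPM in WT and 2.57, 1.76, 2.40 and 2.43 CPM in the labelled libraries. The genotypes did not overlap in either population, and the log2 differences were -1.63 in CMPs (SE 0.45, adjusted p = 0.0612) and -1.38 in MEPs (SE 0.40, adjusted p = 0.0924). In GMPs the log2 difference was -1.56 (SE 0.58, adjusted p = 0.160) from a WT mean of 1.27 ± 0.660 CPM (SD, n = 4) to 0.430 ± 0.0670 (SD, n = 4). None of the 3 was called by edgeR. DESeq2 called all 3, with adjusted p = 0.00229 in CMPs, 0.0272 in GMPs and 0.00713 in MEPs, and edgeR called CMPs once replicate 3 of the labelled CMPs was left out (log2 difference -1.94, adjusted p = 0.049). No neighbouring populations were apart in the WT order of Zfpm1.

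Tal1, the basic helix-loop-helix factor of the erythroid complex, was highest in MEPs. It measured 65.5, 60.3, 54.5 and 54.3 CPM in WT MEPs and 77.0, 66.0, 58.3 and 66.3 CPM in those labelled Tet2-/-. The log2 difference was 0.18 (SE 0.13, adjusted p = 0.611) between overlapping groups. LT-HSCs and CMPs came next, with 37.1 to 50.1 CPM and 28.5 to 40.7 CPM in WT. WT GMPs held 9.40, 6.68, 4.68 and 2.25 CPM, and WT CLPs 0, 11.0, 0 and 0.208 CPM. The WT order was MEP, then LT-HSC, CMP and ST-HSC overlapping in turn, then GMP and CLP, with gaps between these 3 tiers.

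Lmo2, the LIM-domain protein that bridges Tal1 and the GATA factor, was called between genotypes in no population. WT MEPs held 173, 155, 126 and 133 CPM and the labelled MEPs 138, 51.4, 99.0 and 30.9 CPM. The labelled values were spread more widely, the groups overlapped, and the log2 difference was -0.89 (SE 0.39, adjusted p = 0.301). In CMPs the means were 112 ± 15.2 CPM (SD, n = 4) in WT and 111 ± 9.69 (SD, n = 4) in the labelled group. In LT-HSCs 1 library of each genotype stood far above the others, replicate 5 in both, at 274 CPM against 52.4 and 63.0 in WT and at 440.0 CPM against 45.8 to 58.0 in the labelled group.

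Klf1, the erythroid Krüppel-like factor that activates the adult beta-globin gene through CACCC boxes, showed the largest called genotype difference of the 9 genes. WT MEP libraries held 240.2, 239, 402 and 346 CPM, with a mean of 307 ± 80.9 (SD, n = 4). MEP libraries labelled Tet2-/- held 48.6, 25.3, 25.2 and 41.5 CPM, with a mean of 35.1 ± 11.8 (SD, n = 4). All labelled libraries lay below all WT ones, and Klf1 fell by 3.13 on the log2 scale (SE 0.28, adjusted p = 0.000203). In CMPs the WT libraries held 48.1, 44.9, 26.1 and 71.5 CPM and the labelled ones 18.9, 19.3, 15.6 and 13.7 CPM. These groups did not overlap either, and Klf1 fell by 1.51 (SE 0.28, adjusted p = 0.0113). GMPs held 3.14, 0.763, 1.75 and 0.893 CPM in WT and 0.304, 0.950, 0.983 and 0.542 CPM in the labelled libraries, a log2 difference of -1.25 (SE 0.62, adjusted p = 0.325) between overlapping groups.

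Outside these populations Klf1 was low. LT-HSCs labelled Tet2-/- held 0.893, 2.19, 0.313 and 0 CPM. WT LT-HSCs held 1.14, 0 and 0.158 CPM and WT ST-HSCs 2.52, 0 and 0 CPM. ST-HSCs labelled Tet2-/- held 0.101, 0.0637, 0 and 0 CPM, and in ST-HSCs the gene had too few counts to be tested between genotypes. CLPs held 0, 1.16, 0.415 and 0 CPM in WT and 0, 5.58, 12.7 and 0 CPM in the labelled group. In WT MEPs the level of Klf1 was 201 CPM per kilobase, between Gfi1b at 258 and Gata1 at 96.3 CPM per kilobase. In MEPs labelled Tet2-/- it was at 23.0 CPM per kilobase, below Gfi1b at 242, Gata1 at 105 and Lmo2 at 36.8.

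Gfi1b, a zinc-finger repressor that recruits the histone demethylase complex of Kdm1a, was highest in MEPs, at 376, 469, 560.4 and 479 CPM in WT and 391, 501, 533 and 345 CPM in the labelled libraries. The groups overlapped, and the log2 difference was -0.10 (SE 0.15, adjusted p = 0.862). LT-HSCs held 87.2, 139.6 and 121 CPM in WT and 82.8, 128, 80.4 and 48.2 CPM in the labelled group. CMPs held 100.1, 124, 91.6 and 142 CPM in WT and 105, 146, 165 and 140.3 CPM in the labelled group. The means of LT-HSCs and CMPs were close in WT, at 116 and 115 CPM. In the labelled group they were 84.8 and 139 CPM, with overlap between the libraries. In WT, GMPs held 3.61 to 6.98 CPM, far below the stem cells, CMPs and MEPs. In CLPs 3 of the 4 labelled libraries held 22.0, 14.8 and 50.0 CPM, whereas the WT libraries held 0, 7.26, 0.860 and 0 CPM. The 19 megakaryocyte genes listed summed in those CLP libraries to 172, 2115, 97.9 and 620.2 CPM in the labelled group and to 203, 154, 29.1 and 34.3 CPM in WT. Gfi1b was not called there (log2 difference 3.30, SE 2.42), except in the fit of all 46 libraries (3.34, SE 0.99, adjusted p = 0.0305), and the part of the megakaryocyte genes was not tested.

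Nfe2 encodes the large subunit of the NF-E2 dimer, which acts with small Maf proteins in platelet formation and on globin genes. It was steady in MEPs, at 50.0, 49.9, 58.0 and 55.6 CPM in WT and 49.8, 55.4, 49.0 and 47.9 CPM in the labelled libraries, with a log2 difference of -0.09 (SE 0.11, adjusted p = 0.818). In other populations single libraries stood out, such as 116 CPM in WT LT-HSC against 23.9 and 25.0, and 158 CPM in WT ST-HSC against 29.2 and 31.1. Those values belonged to replicate 3 in both. In CMPs the WT libraries lay between 45.6 and 130.3 CPM, the labelled libraries between 29.0 and 146 CPM. In the WT order of Nfe2 only CLPs, at 4.99 to 35.6 CPM, had a gap to the population above them.

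**Figure D2:**
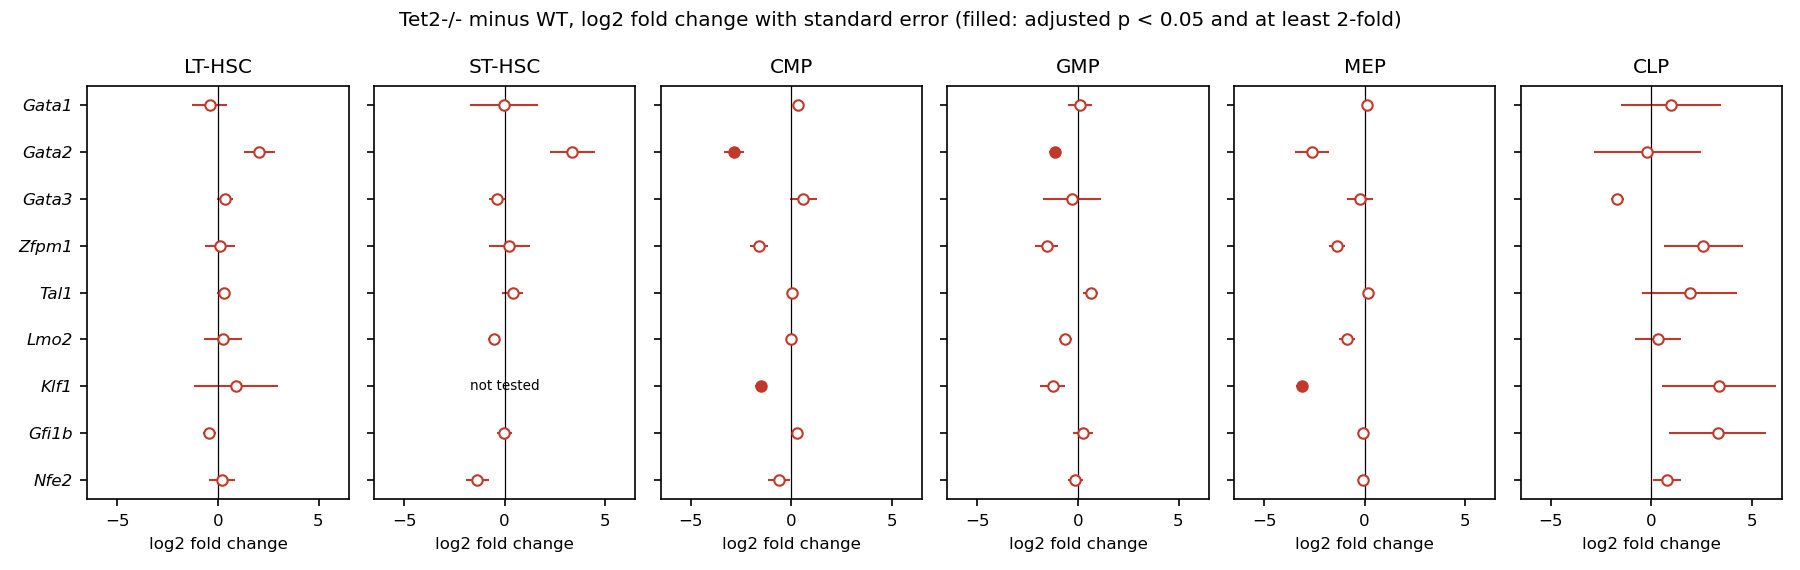
Difference between libraries labelled Tet2-/- and WT for each gene and population, as log2 fold change with its SE from edgeR; filled points were called. The called points are Klf1 in MEP (-3.13) and CMP (-1.51) and Gata2 in CMP (-2.86) and GMP (-1.13), and Klf1 in ST-HSC was not tested.

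A gene was called where edgeR's adjusted p over all genes tested was under 0.05 and the fold change at least 2. By this rule 4 of 53 tests of members between genotypes were called, all of them lower in the libraries labelled Tet2-/-. In CMPs 2 of 9 members were called, against 4.57% of the 16047 genes tested (3.92% lower and 0.654% higher). In GMPs 1 of 9 was called against 4.37% of genes (4.06% lower), and in MEPs 1 of 9 against 4.36% (4.21% lower and 0.147% higher). Thus in MEPs 629 of the 651 genes called were lower, which is the direction of Klf1. In LT-HSCs edgeR called 0 of 9 members, with 1 at an unadjusted p under 0.05, against 0.0245% of genes, and DESeq2 called none of the 8 for which it gave an adjusted p (not Lmo2). In ST-HSCs it called 0 of 8, against 0.0185% of genes, with 2 at an unadjusted p under 0.05 (Gata2 at 0.0157), and DESeq2 called Gata2 with an adjusted p of 0.0203. In CLPs it called 0 of 9, against 0.00766% of genes, with 1 at an unadjusted p under 0.05 and 1 called by DESeq2, Gata3 in both cases. Counting only whether all libraries of a group lay apart, Gata2, Zfpm1 and Klf1 were lower in CMPs, where 9.02% of genes were, and Zfpm1 and Klf1 in MEPs, where 8.44% were. In LT-HSCs Gata2 was higher in all libraries, as 3.2% of genes were, and in CLPs Gata3 was lower in all libraries, as 1.82% of genes were. In ST-HSCs and GMPs no member was apart.

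The Klf1 call in MEPs and the Gata2 call in CMPs stood in 13 of 14 alternatives each, which include leaving out each library in turn. Both were lost where all 46 libraries shared 1 estimate of the spread, with adjusted p = 0.529 and 0.565 and log2 differences of -3.12 and -2.84. With the replicate number as a block, Klf1 in CMPs had a log2 difference of -1.43 and an adjusted p of 0.0529, and Gata2 in GMPs -1.20 and 0.0758.

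More genes were called lower in the upper deciles of GC content of the first 200 transcript bases than in the lower ones. In MEPs it was 1.83% in the fifth decile, 13.5% in the ninth and 8.34% in the tenth. Klf1, with 59% GC, lay in the fifth decile, where 1.83% of genes were called lower in MEPs and 1.99% in CMPs. Gata2, with 68.5% GC, lay in decile 8, where 6.65% were called lower in CMPs and 5.45% in GMPs. Zfpm1, with 82.5% GC, lay in the tenth decile, where 7.60% were called lower in CMPs, 13.2% in GMPs and 8.34% in MEPs. After a correction for GC, the log2 differences were -3.17 for Klf1 in MEPs (adjusted p = 0.00024), -1.52 for Klf1 in CMPs (adjusted p = 0.0124) and -2.65 for Gata2 in CMPs (adjusted p = 0.0137). Gata2 in GMPs was then at -1.07 with an adjusted p of 0.0531.

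**Figure D3:**
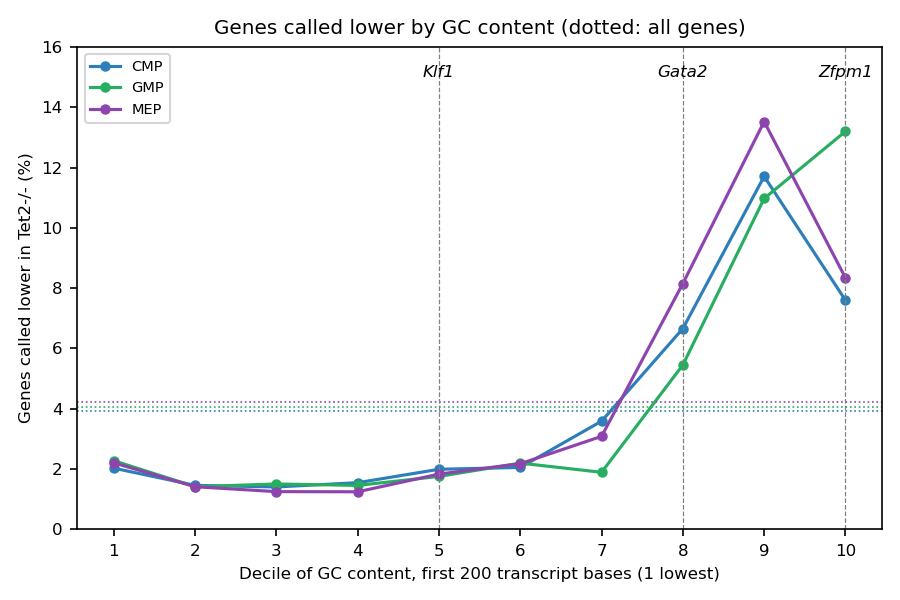
Percent of genes called lower in libraries labelled Tet2-/- by decile of GC content of the first 200 transcript bases, in CMP, GMP and MEP; the dotted line is the percent over all genes, and the deciles of Klf1, Gata2 and Zfpm1 are marked. The percent is highest in the ninth decile in CMP (11.7) and MEP (13.5) and in the tenth in GMP (13.2), and Klf1 lies in the fifth.

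The populations of 1 genotype were compared in 6 contrasts, stem cells with each other, CMP and CLP with ST-HSC, and the 3 myeloid progenitors pairwise, with the 6 populations of a genotype in 1 fit. In WT the clearest contrast was MEP against GMP, in which Gata1, Klf1 and Gfi1b rose. Gata1 was higher in MEPs by 5.80 on the log2 scale (SE 1.20, adjusted p = 0.00164), Klf1 by 7.46 (SE 1.64, adjusted p = 0.00266) and Gfi1b by 6.53 (SE 1.16, adjusted p = 0.000414). That is 3 of 9 members against 14.7% of genes (4.58% higher in MEPs and 10.2% lower). In GMPs against CMPs Gata1 fell by 4.39 (SE 1.12, adjusted p = 0.0271) and Gfi1b fell by 4.53 (SE 1.06, adjusted p = 0.0152), 2 of 9 members against 3.15% of genes (1.6% higher and 1.54% lower in GMPs). Without replicate 2, 3 or 4 the Gata1 call was lost (adjusted p = 0.0916, 0.239 and 0.0885), and without replicate 2, 4 or 5 the Gfi1b call (adjusted p = 0.0636, 0.0728 and 0.0985). In MEPs against CMPs 0 of 9 members were called by edgeR against 6.45% of genes (0.93% higher and 5.52% lower in MEPs), with 1 at an unadjusted p under 0.05. DESeq2 gave no adjusted p for Gata1 and Tal1 and called none of the other 7. The log2 differences there were 1.40 for Gata1 (SE 0.99), 2.65 for Klf1 (SE 1.31) and 2.00 for Gfi1b (SE 0.95).

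The fits above shared 1 estimate of the spread over the 6 populations. With only the 2 compared populations in the fit, an alternative chosen after seeing the data, MEPs held more Gata1 (log2 difference 1.43, adjusted p = 9.6e-05), Klf1 (2.67, adjusted p = 0.000372) and Gfi1b (2.02, adjusted p = 7.29e-05) than CMPs in WT, where 14.7% of genes were called. In that form 20 WT tests of members were called instead of 10. In MEPs against GMPs these were 6 of 9 members, all higher in MEPs, against 30.4% of genes, and in GMPs against CMPs 6 of 9, all lower in GMPs, against 13.5%.

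Against ST-HSCs, WT CMPs held more Gata1 (log2 difference 4.72, SE 1.30, adjusted p = 0.0335) and less Gata3 (-3.25, SE 0.92, adjusted p = 0.0393), 2 of 9 members against 5% of genes (3.77% higher and 1.23% lower). Neither call stood when any 1 replicate number was left out, with adjusted p from 0.0511 to 0.237. WT CLPs held more Gata3 than ST-HSCs (4.17, SE 1.05, adjusted p = 0.00564), less Gfi1b (-4.61, SE 1.10, adjusted p = 0.00364) and less Nfe2 (-2.14, SE 0.66, adjusted p = 0.0215), 3 of 9 against 24.5% of genes (10.2% higher and 14.3% lower). The Nfe2 difference rested on replicate 3, without which it was -0.50 (adjusted p = 0.517), and it was not called without replicate 4 (adjusted p = 0.0794) or 5 (0.0617). With only CLPs and ST-HSCs in the fit the Gfi1b difference was -4.56 with an adjusted p of 0.219, not called. Without replicate 3 the Gata3 difference was 4.23 with an adjusted p of 0.0575. Between LT-HSCs and ST-HSCs edgeR called 0 of 9 members, against 0.175% of genes (0.03% higher and 0.145% lower), with 1 at an unadjusted p under 0.05. That member was Gata1, for which DESeq2, as for Tal1, gave no adjusted p here, and DESeq2 called none of the other 7.

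In libraries labelled Tet2-/- the same genes led the MEP against GMP contrast. Gata1 was higher in MEPs by 5.78 (SE 1.63, adjusted p = 0.0154), Klf1 by 5.55 (SE 1.76, adjusted p = 0.0285), Gfi1b by 6.17 (SE 1.01, adjusted p = 0.000159) and Tal1 by 2.80 (SE 0.68, adjusted p = 0.0059). That is 4 of 9 members against 15.7% of genes (5.36% higher in MEPs and 10.3% lower). The Klf1 call was lost without replicate 2, 3 or 4 (adjusted p = 0.0727, 0.124 and 0.109) and the Gata1 call without replicate 5 (adjusted p = 0.0753). In GMPs against CMPs Gata3 fell by 3.02 (SE 0.61, adjusted p = 0.00659) and Gfi1b fell by 4.49 (SE 0.93, adjusted p = 0.00912), 2 of 9 against 3.08% of genes (1.83% higher and 1.25% lower). The Gata3 call was lost without replicate 2 or 4 (adjusted p = 0.0727 and 0.0735) and the Gfi1b call without replicate 3, 4 or 5 (adjusted p = 0.114, 0.087 and 0.114). CMPs held less Gata3 than ST-HSCs (-2.24, SE 0.58, adjusted p = 0.0316) and more Klf1 (7.96, SE 2.05, adjusted p = 0.0193), 2 of 9 against 3.33% (2.04% higher and 1.29% lower). Gata3 lost this call without replicate 3, 4 or 5 (adjusted p = 0.17, 0.116 and 0.202) and Klf1 without replicate 3 or 4 (adjusted p = 0.173 and 0.141). CLPs held more Gata3 (2.89, SE 0.60, adjusted p = 0.00156) and more Klf1 (6.07, SE 1.90, adjusted p = 0.0148) than ST-HSCs, 2 of 9 against 20.1% (9.36% higher and 10.8% lower), and the Klf1 difference rested on the CLP libraries at 5.58 and 12.7 CPM, replicates 3 and 4, without which its adjusted p was 0.0858 and 0.143. MEPs against CMPs and LT-HSCs against ST-HSCs gave 0 of 9 by edgeR, against 3.62% (0.221% higher and 3.4% lower) and 0.118% (0.0206% higher and 0.0979% lower) of genes, with 1 and 3 members at an unadjusted p under 0.05. DESeq2 called 1 of these, Gata3, lower in MEPs than in CMPs (-1.87, adjusted p = 0.00826). With only CMPs and MEPs in the fit, MEPs labelled Tet2-/- held more Gata1 (log2 difference 1.22, adjusted p = 0.00112), Klf1 (1.06, adjusted p = 0.0213) and Gfi1b (1.67, adjusted p = 0.000612) and less Gata2 (-1.27, adjusted p = 0.0479) than CMPs, 4 of 9 members against 9.96% of genes.

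**Figure D4:**
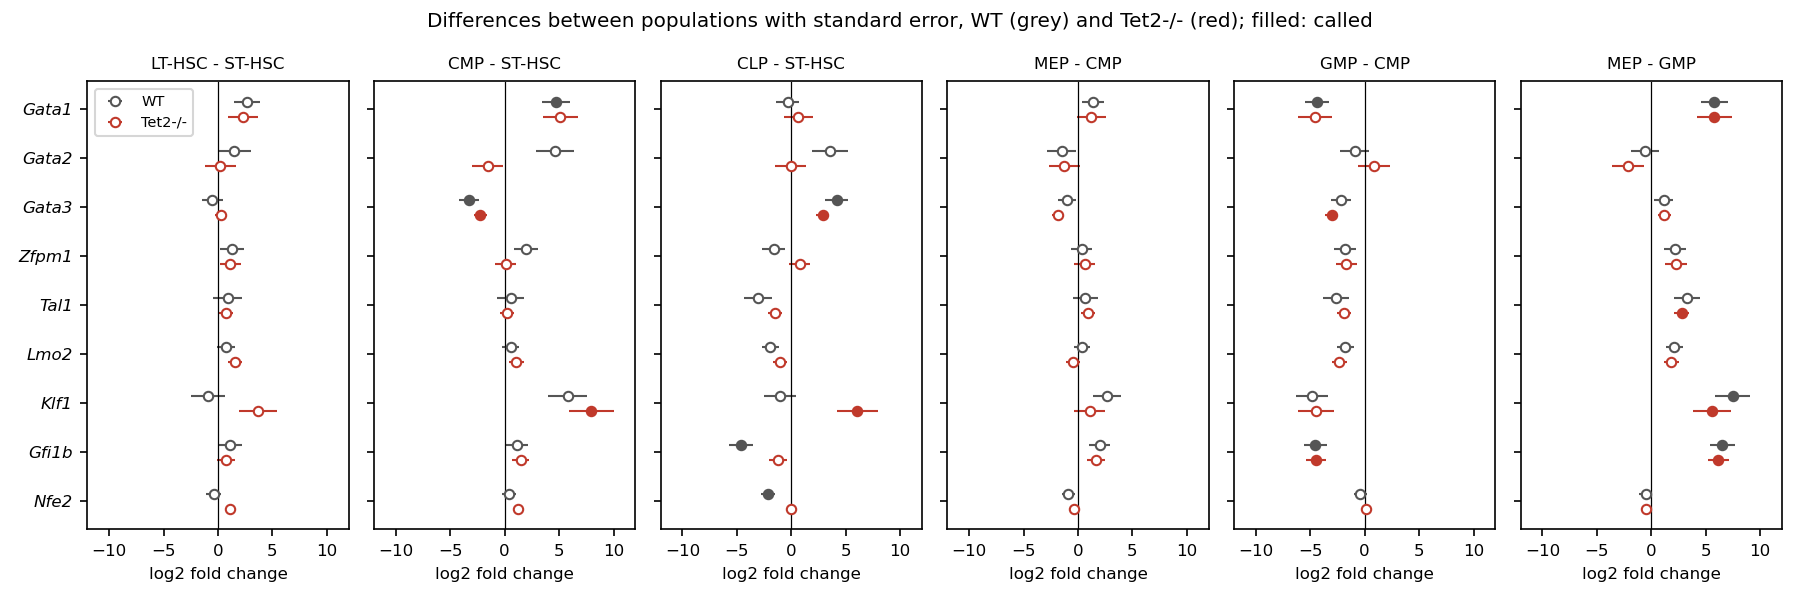
Differences between populations for each gene in 6 contrasts, as log2 fold change with its SE from edgeR, WT in grey and the label Tet2-/- in red; filled points were called. In the panel of MEP against GMP the points of Gata1, Klf1 and Gfi1b lie between 5.55 and 7.46 in both genotypes and are filled.

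Whether the genotype difference itself varied over the 6 populations was tested in 1 fit of the 46 libraries. Of 22360 genes 592 passed, or 2.65%, and 0 of the 9 members did by edgeR, with 2 at an unadjusted p under 0.05. Klf1 had an unadjusted p of 0.0193 (adjusted p = 0.230), Zfpm1 of 0.0316 (0.291) and Gata2 of 0.0570 (0.379). DESeq2 passed 1 member, Zfpm1. The opposite signs of Gata2 in stem cells and progenitors are therefore given as values and not as a tested difference. Averaged over the populations, edgeR called 781 genes, or 3.49%, and 0 members, with 0 at an unadjusted p under 0.05, and DESeq2 called none. Klf1 had an average log2 difference of -0.86 (SE 0.60, adjusted p = 0.495) and Tal1 of 0.58 (SE 0.39, adjusted p = 0.566). Without replicate 3 of the WT libraries Tal1 passed both tests, with an average log2 difference of 1.48 (SE 0.34, adjusted p = 0.00411 by edgeR) and an adjusted p of 0.00639 for the variation over populations.

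The genes on which these factors act were followed in a list of 28 erythroid and 19 megakaryocyte genes. In CMPs labelled Tet2-/-, where Klf1 and Gata2 were lower, 7 of 26 erythroid genes tested rose and 0 fell, where 0.654% of all genes rose and 3.92% fell, and the median log2 difference of the 26 was 0.87, against 0.03 over all genes. Rhd, a red cell membrane antigen, rose from 26.7 ± 20.5 to 144 ± 27.2 CPM (SD, n = 4 each; log2 difference 2.43, SE 0.48, adjusted p = 0.0156). Its relative Rhag rose by 2.16 (SE 0.52, adjusted p = 0.0385) and Ermap, an erythroid membrane protein, by 2.13 (SE 0.32, adjusted p = 0.00342). Car1, an abundant red cell carbonic anhydrase, rose from 877 ± 402 to 3596 ± 1209 CPM (SD, n = 4 each; log2 difference 2.03, SE 0.38, adjusted p = 0.0111). Summed over the list, the WT CMP libraries held 3292, 2353, 1383 and 2282 CPM and the labelled ones 4811, 7340, 6206 and 8921 CPM. All labelled CMP libraries were above all WT ones in this sum. Car1 alone made up a large part of its mean, 877 of 2327 CPM in WT and 3596 of 6819 CPM in the labelled group.

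In MEPs labelled Tet2-/-, where Klf1 fell most, 0 of 26 erythroid genes rose and 3 fell, where 0.147% of all genes rose and 4.21% fell, and the median was 0.08 against 0.05 over all genes. Fech, the enzyme that puts iron into heme, fell by 1.31 (SE 0.19, adjusted p = 0.00323), from 118 ± 21.1 to 47.8 ± 10.9 CPM (SD, n = 4 each). The alpha-globin genes Hba-a1 and Hba-a2 fell by 1.38 (SE 0.33, adjusted p = 0.0398) and 1.47 (SE 0.31, adjusted p = 0.0232), but these are near-identical copies and reads may have been split between them. The list summed to 19716 to 22355 CPM in WT MEPs and 21523 to 27410 CPM in the labelled ones, with overlap. In GMPs 1 of 22 erythroid genes fell, Fech by 1.17 (SE 0.24, adjusted p = 0.0123), and 0 rose, a share near the 4.06% of all genes called lower there.

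Of the megakaryocyte genes, 2 of 18 fell in CMPs and 2 of 15 in MEPs, the same 2 in both, and 0 rose, beside 3.92% and 4.21% of all genes that fell. Gp1bb, a subunit of the platelet receptor for von Willebrand factor, fell by 4.22 in CMPs (SE 0.37, adjusted p = 0.000172) and by 4.56 in MEPs (SE 1.10, adjusted p = 0.0319). Gp5, another subunit of that receptor, fell by 1.52 in CMPs (SE 0.32, adjusted p = 0.0206) and by 2.14 in MEPs (SE 0.30, adjusted p = 0.00285). The list medians were 0.09 in CMPs and -0.63 in MEPs. In GMPs 2 of 15 rose and 0 fell, where 0.308% of all genes rose, with a median of 0.84. These were Itga2b, the platelet integrin subunit CD41, from 14.3 ± 2.31 to 32.0 ± 11.8 CPM (SD, n = 4 each; log2 difference 1.12, SE 0.24, adjusted p = 0.0179), and Selp, P-selectin, from 12.1 ± 2.62 to 29.1 ± 10.3 CPM (1.23, SE 0.27, adjusted p = 0.0169).

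Among 25 proteins that form complexes with the 9 factors or oppose them, 2 fell in CMPs, 2 in GMPs and 3 in MEPs, and 0 rose. All 25 were tested in each population, and of all genes 3.92%, 4.06% and 4.21% fell. Spi1, the myeloid factor PU.1 that antagonises Gata1, fell in all 3. It fell by 3.08 in CMPs (SE 0.19, adjusted p = 2.9e-05), from 103 ± 12.5 to 12.3 ± 2.88 CPM, by 2.61 in GMPs (SE 0.12), from 208 ± 31.0 to 35.0 ± 1.80 CPM, and by 3.45 in MEPs (SE 0.50, adjusted p = 0.0030), from 7.78 ± 0.453 to 0.688 ± 0.365 CPM (SD, n = 4 each). Lyl1, a close relative of Tal1, fell by 3.41 in CMPs (SE 0.57, adjusted p = 0.0066) and by 2.62 in MEPs (SE 0.59, adjusted p = 0.0317). Tcf12, an E-protein partner of Tal1, fell by 1.63 in MEPs (SE 0.31, adjusted p = 0.0137), and Hdac2, a deacetylase of the complex that Zfpm1 recruits, fell by 1.64 in GMPs (SE 0.21, adjusted p = 0.000478). In LT-HSCs, ST-HSCs and CLPs 0 genes of the 3 lists were called by edgeR, with at most 3 of a list at an unadjusted p under 0.05. GC content and GC-corrected differences were read for the 9 members only, not for genes of the 3 lists.

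**Figure D5:**
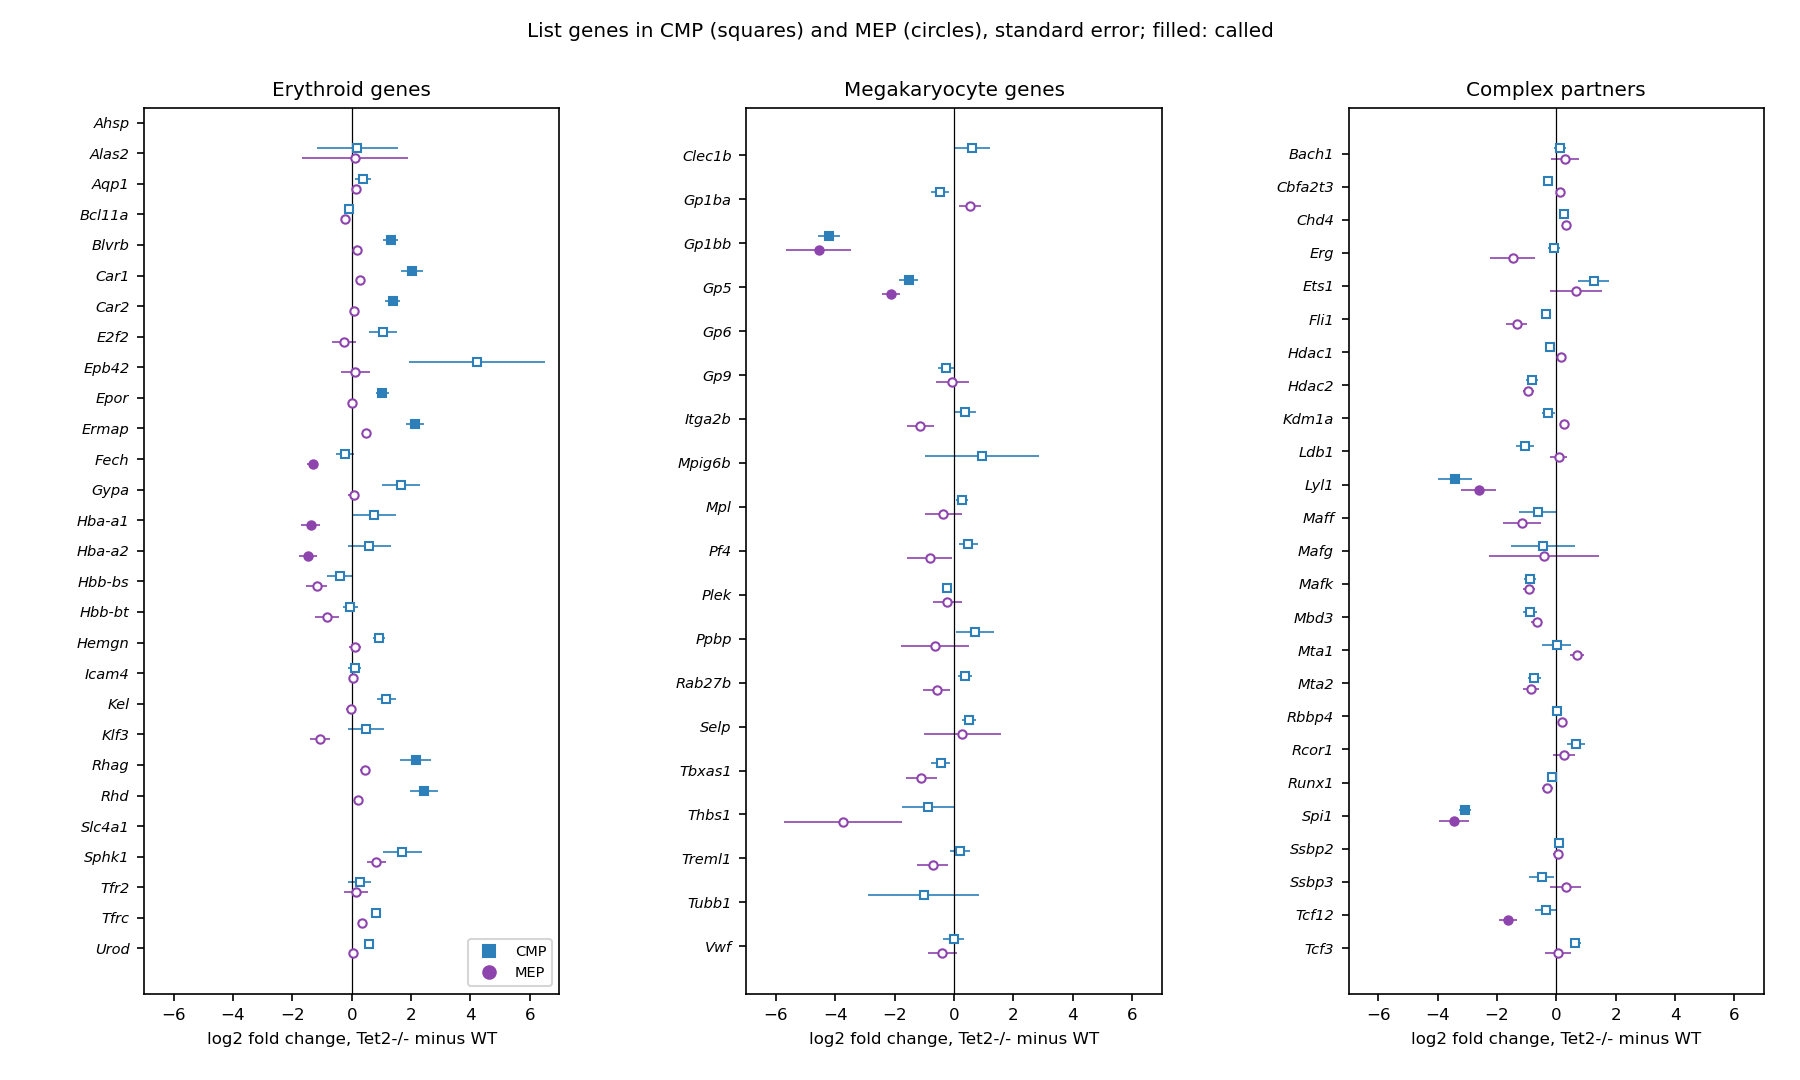
Log2 difference between libraries labelled Tet2-/- and WT for the genes of the erythroid, megakaryocyte and partner lists, squares for CMP and circles for MEP, with filled symbols for called genes. In CMP the called erythroid genes lie above 1 on the log2 scale, whereas Spi1 (-3.08 and -3.45), Lyl1 (-3.41 and -2.62) and Gp1bb (-4.22 and -4.56) lie far below 0 in both populations.

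Genes of other cell types did not separate the genotypes in MEPs. The 12 granulocyte-monocyte genes summed to 17.5 to 63.1 CPM in WT and 16.7 to 88.0 CPM in the labelled libraries, the 8 macrophage genes to 1.43 to 2.18 and 1.68 to 5.55 CPM, and the 10 mature neutrophil genes to 0.157 to 1.53 and 0.0607 to 1.37 CPM. The mast cell, basophil and eosinophil genes summed to 8.18 to 20.2 CPM in WT and 8.84 to 22.0 CPM in the labelled group. The 13 lymphoid genes summed to 42.0 to 207 and 70.9 to 231 CPM, and the 16 T, NK and innate lymphoid genes to 85.3 to 141 and 101 to 116 CPM. The groups overlapped in each of these sums. In CMPs the mast cell, basophil and eosinophil genes summed to 180 to 244 CPM in WT and 290 to 562 CPM in the labelled libraries, without overlap. The granulocyte-monocyte genes summed there to 3957 to 5551 CPM in WT and 3602 to 3969 CPM in the labelled libraries, with overlap, and the mature neutrophil genes to 7.89 to 10.2 CPM and 11.3 to 16.7 CPM, without overlap. In CMPs the mast cell protease gene Cpa3 rose by 1.44 (SE 0.22, adjusted p = 0.00399) and Il6ra fell by 2.35 (SE 0.50, adjusted p = 0.0215), and of 12 stem cell genes 1 rose, Mllt3 by 1.44 (SE 0.26, adjusted p = 0.00935), while their sum was 139 to 180 CPM in WT and 133 to 184 CPM in the labelled libraries. The part of these genes in the CMP differences of Klf1, Gata2 and the erythroid list was not tested.

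Likeness of pattern was measured as Pearson's r over the 12 group means of log2 CPM, among 8254 genes with a mean of at least 10 CPM, and is given with no test, since the groups share libraries and depth. The genes most like Gata1 were Ces2g (0.964), Stx2 (0.952) and Smim1 (0.951), and those most like Gfi1b were Stard10 (0.984), Hemgn (0.979) and Cops9 (0.974). Klf1 came closest to Ezh2 (0.939), Col5a1 (0.937) and Cox5b (0.931), and Gata3 to H2-Ab1 (0.984), Ppp1r16b (0.973) and H2-Q6 (0.972). For Gata2 the highest values were lower, with Crtap at 0.884 and Cpne2 at 0.864. Tal1 was most like Polr2h (0.985), Pop7 (0.985) and Rpp38 (0.978), Lmo2 like Gfi1b (0.944), Plxnc1 (0.942) and Hemgn (0.940), Zfpm1 like Guf1 (0.957), Lin52 (0.938) and Gclm (0.930), and Nfe2 like Tstd2 (0.929), Acy1 (0.922) and Armt1 (0.920). Within the 9 genes, r was 0.957 between Tal1 and Gfi1b, 0.944 between Lmo2 and Gfi1b and 0.845 between Gata1 and Klf1.

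In the second set the counts of the Sting transcript went against the Sting label in 4 of 9 libraries. Tmem173, the gene of Sting, had 1788, 1168 and 0 counts in the WT group. The group labelled Sting-/- had 6333, 0 and 3835 counts, and the double knockout group had 0, 14 and 1128 counts. These counts cover the whole gene, so they cannot show whether an allele was disrupted. The study reports loss of STING protein in bone marrow cells of both knockout genotypes. Whether the labels or the counts are at fault was not tested. Tet2 had 977, 0 and 0 counts in WT libraries of this set, 498, 1729 and 91 in Sting-/- and 1342, 1433 and 56 in Tet2;Sting DKO libraries, so its counts did not follow the labels either. The groups of this set also differed in sex, Eif2s3y, a gene of the Y chromosome, having at most 8 counts in the libraries labelled WT and 7229 to 20154 in the others, so sex and genotype cannot be told apart in the comparisons with WT. The comparisons below follow the labels.

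Klf1 and Gata1 were nearly absent from these LT-HSC libraries, although WT LT-HSCs of the first set held 14.1 to 28.3 CPM of Gata1. Libraries of the second set also detected fewer genes, and the cause of the difference was not tested. Klf1 had 0 counts in all 9 libraries, and Gata1 had at most 6 counts in any library. Lmo2, in contrast, was abundant, at 728, 355 and 608 CPM in WT. Its level was 367, 227 and 333 CPM in Sting-/- libraries, and 209, 92.7 and 162 CPM in Tet2;Sting DKO libraries. The last group lay below all others, and its log2 difference from WT was -1.93 (SE 0.42, adjusted p = 0.116 by edgeR, 0.0238 by DESeq2). Gata2 measured 202, 93.6 and 170.0 CPM in WT, 109, 44.1 and 50.7 in Sting-/- and 20.4, 16.4 and 52.5 CPM in Tet2;Sting DKO libraries. All Tet2;Sting DKO values were below all WT values, with a log2 difference of -2.46 (SE 0.68, adjusted p = 0.177 by edgeR, 0.0133 by DESeq2). Nfe2 measured 591, 309 and 541 CPM in WT, 181, 332 and 263 in Sting-/- and 242, 298 and 104 CPM in Tet2;Sting DKO libraries, with a log2 difference of -1.22 (SE 0.46, adjusted p = 0.282) between the last and WT.

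Gfi1b lay between 28.4 and 130.2 CPM in WT libraries, 6.40 and 26.1 CPM in Sting-/- libraries, 43.7 and 105 CPM in Tet2;Sting DKO libraries. Tal1 ranged from 5.03 to 32.4, 4.62 to 52.5 and 19.8 to 64.7 CPM in the same order, Gata3 from 5.38 to 28.8, 36.6 to 54.7 and 0 to 27.3 CPM, and Zfpm1 from 1.11 to 8.71, 0 to 4.80 and 0.123 to 2.83 CPM. With edgeR 0 of the 7 members tested were called in any of the 3 pairs, and the share of all genes called was 0% between Sting-/- and WT, 0.657% between Tet2;Sting DKO and WT and 0.159% between Tet2;Sting DKO and Sting-/-. At an unadjusted p under 0.05 were 2 members (Lmo2 and Nfe2), 3 members (Gata2, Lmo2 and Nfe2) and 1 member (Lmo2) in these pairs. DESeq2 called the Gata2 and Lmo2 differences between Tet2;Sting DKO and WT. With only the 5 libraries whose Tmem173 counts matched their label, these differences were -3.06 for Gata2 (SE 0.88, adjusted p = 0.401) and -1.90 for Lmo2 (SE 0.63, adjusted p = 0.401). The 3 pairs share libraries, so their differences are not independent of each other.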

How the data were processed

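The authors sorted bone marrow cells, amplified RNA by a modified SMART-Seq2 protocol and deposited raw counts of reads per gene for each library, trimmed and then mapped to mm10 by the study's methods; the submitters' processing notes name Trim Galore 0.6.7, HISAT2 7.5.0, DESeq2 and the builds mm10 and mm9. The counting program, its annotation and its use of strand are not given in the sources used here. The deposited counts were used as they stand, except 3 lines of the second table that hold 1 broken entry, leaving 55421 and 35975 genes. Library sizes were scaled by TMM.

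Genes were tested with edgeR 4.0.16 (quasi-likelihood, filterByExpr, prior count of 2) in R 4.3.3, by genotype within each population and by population within each genotype, with Benjamini-Hochberg adjustment over all genes tested. A call needed an adjusted p under 0.05 and a fold of at least 2. Alternatives were RLE scaling, no filter, leaving out each library or replicate number, the replicate number as a block (limma 3.58.1 voom in the fit of all libraries), DESeq2 1.42.0 and 1 fit of all 46 libraries. Added after seeing the data were a GC correction, fits of only the 2 compared populations, and the second set without libraries whose Tmem173 counts went against their label. Deviations of same-numbered libraries were weakly correlated in some comparisons and negative in others, so the block was used only as an alternative.

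Named were the 9 members, genes of the lists called in a comparison (at most the 4 largest differences each way), genes that check a label, and the 3 genes most like each member, of which 1 gene is not reported here. Members and lists were chosen with earlier results of these data known. Exon lengths and gene positions were those of GENCODE vM21 on GRCm38, and promoters those of RefSeq on GRCm38.p6. Only the edgeR test was tried on simulated counts with known fold changes, and no change that it called had the wrong direction. It recovered most changes between genotypes in MEPs. Between genotypes in CLPs it recovered none, and between Tet2;Sting DKO and WT few. The other steps were not tried on simulated data.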

Additional observations from a re-analysis of the deposited data

Results flagged for a closer look

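Of 90 groups of 4 libraries that were examined, 4 held a library far from the others on the log2 scale, where chance alone gives about 1 in 20 groups. Gata1 in CMPs labelled Tet2-/- was 83.3 CPM in replicate 2, against 115 to 122 CPM in the other libraries. Gata1 in WT GMPs was 6.59 CPM in replicate 2, against 2.92 to 3.26 CPM. Zfpm1 in CLPs labelled Tet2-/- was 0 CPM in replicate 5, against 2.16 to 4.29 CPM. Lmo2 in LT-HSCs labelled Tet2-/- was 440 CPM in replicate 5, against 45.8 to 58.0 CPM, and replicate 5 of WT LT-HSCs was also the highest of its group at 274 CPM.

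Gata2 differed between genotypes in opposite directions in 2 populations, with every library of the labelled group below WT in CMPs and above WT in LT-HSCs. The log2 differences were -2.86 and 2.06, so that they lay -4.92 apart. This pair was not tested on its own, and the test of the genotype difference over all 6 populations gave Gata2 an adjusted p of 0.379. The sum of the granulocyte-monocyte genes was also above WT in every labelled LT-HSC library.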

How the results depend on the processing

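The 4 called differences between genotypes became 2 with the replicate block and 10 with DESeq2. The share of all genes called by DESeq2 is not given, so no DESeq2 call of members here or above is set against a background. In the fit of all 46 libraries none of the 4 was called, and 1 other difference was, Gfi1b higher in CLPs. There were 3 to 5 calls when single libraries were left out. The 10 calls between WT populations became 20 with only the 2 compared populations in the fit, and 6 to 9 with a replicate number left out (6 without WT replicate 5). With the replicate block they became 9, of which 6 were higher and 3 lower, instead of 5 and 5. The 10 calls between populations labelled Tet2-/- became 18 with DESeq2, 24 with only the 2 compared populations, and 4 to 9 with a replicate number left out (4 without replicate 4). In the test of the genotype difference over populations 0 members passed, against 1 with limma voom and the replicate block (Tal1), 1 with DESeq2 (Zfpm1) and 0 to 1 with a replicate number left out. The voom fit changed both the test and the block, and its estimated block correlation was 0.0217, so its calls cannot be put down to the block alone. For the average over populations 0 became 1 with limma voom and the replicate block together, and 0 to 1 with a replicate number left out. In the second set 0 became 2 with DESeq2. Of the 27 genes chosen for likeness, 2 stayed among the 3 most alike with Spearman's rho and 5 over the 6 WT group means.

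Of 252 values of the 24 called differences under the alternatives, 193 kept their call, 59 lost it and 0 changed direction; DESeq2 or the smaller fit gave no adjusted p in 4 more. Among the 46 differences called only under an alternative, 4 values reversed. Klf1 in CLPs against ST-HSCs in WT was 0.23 with the replicate block and -2.98 (without WT replicate 3) to 4.33 (without WT replicate 2) with a replicate number left out, against -1.03. Gata1 in CLPs against ST-HSCs in the labelled group was -0.49 with the replicate block and -4.65 (without replicate 3) to 2.52 (without replicate 5), against 0.62. The cause was not tested. The libraries compared ranged from 0 to 150 counts for Klf1 and from 0 to 1461 counts for Gata1. Deviations of same-numbered libraries from their group means correlated most evenly between CMPs and MEPs of the labelled group, at 0.111 to 0.136. Between CMPs and GMPs the values were 0.0775 to 0.127 in WT and 0.0647 to 0.125 in the labelled group. In each of these comparisons 4 of 4 libraries matched their own number best. In some other comparisons values were negative, so shared mice or batches remain possible. RLE scaling moved group levels by -0.17 (WT CLP) to 0.12 (WT MEP) on the log2 scale against TMM. Differences in CLPs and in the second set had large errors, with SEs of members of 0.33 to 2.83 and 0.34 to 2.81.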
